A study of Mus musculus with 2 samples.

Results

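The genes described here are 10 genes of protein folding in the endoplasmic reticulum (ER) and of the unfolded protein response, out of 12530 mouse genes in the deposited tables. They were chosen by name, through their Ensembl identifiers, with earlier results of these data known. All 10 were listed in both libraries. They are the chaperone Hspa5 (also called BiP) with its exchange factor Hyou1, the chaperone Hsp90b1, the lectin chaperones Calr and Canx, the disulfide isomerases Pdia3, Pdia4, Pdia6 and P4hb, and the transcription factor Xbp1. Ribosome-protected fragments, the pieces of mRNA that a ribosome shields from RNase I, were sequenced from mouse spinal cord. There was 1 library from wild-type mice and 1 from mice heterozygous for the C201R allele of Gars, the gene of glycyl-tRNA synthetase. Each library was made from the combined lysates of 3 animals, so the tables hold no spread between animals. The labels state no age, sex or strain, and they name no other allele or treatment.

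The ER is where secreted and membrane proteins, myelin proteins among them, are folded, given sugar chains and linked by disulfide bonds. When unfolded proteins build up there, the sensors IRE1, PERK and ATF6 start the unfolded protein response. IRE1 splices Xbp1 mRNA, and the resulting factor acts with cleaved ATF6 to raise transcription of ER chaperones, while PERK slows translation as a whole. Hspa5, Hsp90b1, Calr and several disulfide isomerases are standard readouts of this response. Read totals per gene do not separate spliced from unspliced Xbp1 mRNA. With no RNA library, mRNA amount and ribosome loading could not be told apart.

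Because ATF6 and XBP1 act on the ER stress response element (ERSE), its matches in the promoters are shown here for comparison with the levels that follow. The element was searched as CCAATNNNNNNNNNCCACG on both strands, in windows from 250 bases before to 50 bases after the RefSeq start on GRCm38.p6. Windows were held for 9 of the 10 genes, all but Hyou1. The 6 exact matches, in 5 genes, are printed in the direction of the element with 10 bases on each side, and capitals mark the CCAAT and CCACG parts.
Hspa5: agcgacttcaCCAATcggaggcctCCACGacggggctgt
Hsp90b1, far: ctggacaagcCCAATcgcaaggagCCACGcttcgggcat
Hsp90b1, near: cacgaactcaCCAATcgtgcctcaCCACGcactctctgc
Calr: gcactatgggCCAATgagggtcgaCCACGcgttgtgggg
Canx: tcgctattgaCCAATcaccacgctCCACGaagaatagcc
Pdia6: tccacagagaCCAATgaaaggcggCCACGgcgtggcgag

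The printed Hspa5 stretch lies at chr2:34772015-34772053 on the plus strand, and its element spans -65 to -47 from the start. The far Hsp90b1 stretch lies at chr10:86705628-86705666 on the minus strand (element at -212 to -194) and the near one at chr10:86705523-86705561 on the plus strand (-107 to -89). The Calr stretch is at chr8:84847065-84847103, plus strand (-162 to -144), the Canx stretch at chr11:50325790-50325828, minus strand (-145 to -127), and the Pdia6 stretch at chr12:17266481-17266519, plus strand (-98 to -80). Among all 32851 promoter windows of the reference table, 39 (0.119%) held an exact match, 5 of them in the genes described here. Of 17491 protein-coding genes with a window, 29 (0.166%) had an exact match. The element belongs to the same stress response as the chosen genes, so these shares are a description and enrichment was not tested.

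Allowing 1 mismatch in the 10 fixed letters added Pdia3 and Pdia4, for 7 of the 9 genes. The share was 1.5% over all windows and 1.99% over protein-coding genes. The added matches are printed in the same way, with the stretch in Pdia3 at chr2:121413863-121413901 and that in Pdia4 at chr6:47813592-47813630, both on the plus strand. Hsp90b1 also had an inexact match at -172 to -154.
Pdia3: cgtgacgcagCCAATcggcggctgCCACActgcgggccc
Pdia4: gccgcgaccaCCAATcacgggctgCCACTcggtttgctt

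The windows of P4hb and Xbp1 held no match within 1 mismatch. The core TGACGTG, at which XBP1 and ATF6 also bind, was in the Hspa5 window alone among the 9, at -157 to -151. It was in 2.01% of all windows and in 2.49% of protein-coding genes. CCAAT by itself was in 8 of the 9 windows, in 37.4% of all windows and in 42.3% of protein-coding genes. It is part of each exact ERSE. A match of letters is not evidence of binding, and no factor was measured here.

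The whole windows of 2 genes are given because Hspa5 is the standard readout of the response and Canx had the lowest ratio below. The Hspa5 window is chr2:34771840-34772139, plus strand, and the Canx window is chr11:50325624-50325923, minus strand. Capitals again mark the exact ERSE.
Hspa5: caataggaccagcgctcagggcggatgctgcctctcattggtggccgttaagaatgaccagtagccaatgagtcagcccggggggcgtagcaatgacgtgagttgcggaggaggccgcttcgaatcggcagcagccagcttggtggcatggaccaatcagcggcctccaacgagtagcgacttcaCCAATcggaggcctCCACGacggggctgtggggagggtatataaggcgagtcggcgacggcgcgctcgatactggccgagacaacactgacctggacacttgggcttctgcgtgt
Canx: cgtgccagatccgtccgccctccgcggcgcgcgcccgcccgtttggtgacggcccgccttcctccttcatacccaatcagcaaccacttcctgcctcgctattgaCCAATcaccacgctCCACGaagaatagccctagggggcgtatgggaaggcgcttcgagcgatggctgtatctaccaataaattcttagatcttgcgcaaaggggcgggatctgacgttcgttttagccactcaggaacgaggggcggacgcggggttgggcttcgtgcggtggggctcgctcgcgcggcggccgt

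**Figure D1:**
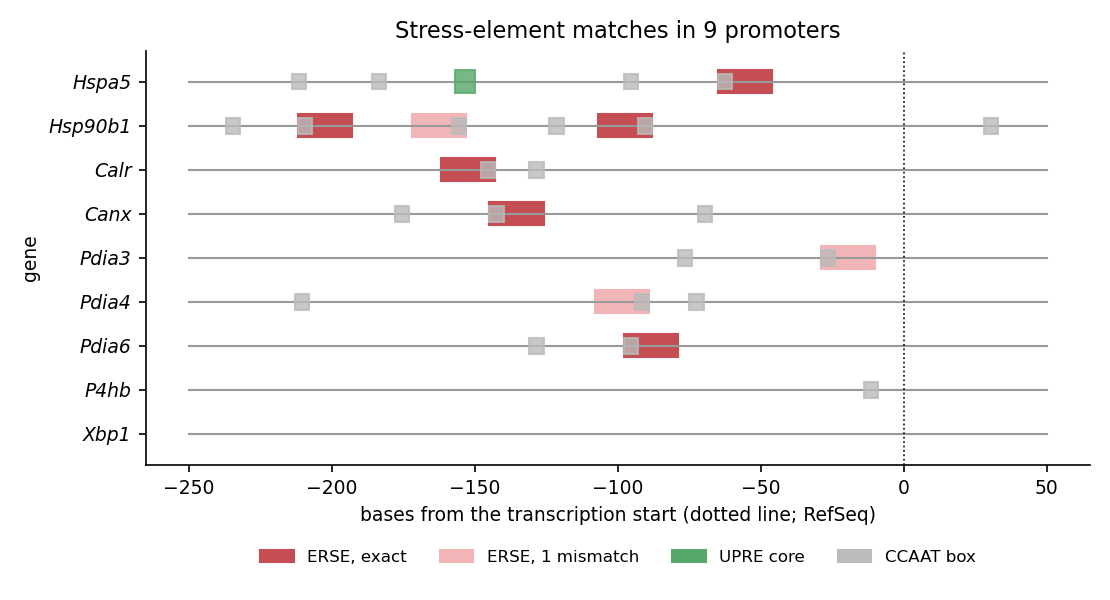
Positions of the matches in the 9 promoter windows, in bases from the transcription start (x axis), with 1 line per gene (y axis). Boxes stand for exact ERSE matches, ERSE matches with 1 mismatch, the core TGACGTG and CCAAT; exact ERSE boxes are on 5 of the 9 lines, with 2 on the Hsp90b1 line, and the grey CCAAT boxes inside ERSE boxes are part of them.

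Depth was 7771455 listed reads for wild type and 3514016 for C201R/+, and the median gene had 206 and 96 reads. ERCC spike-ins, synthetic control RNAs, took part in no scaling of the main values. Markers of spinal cord cells could not be named from the identifiers, so the labelled tissue was not checked against them here. Differences were compared as the log2 ratio of the C201R/+ over the wild-type library after TMM scaling, a scaling to the bulk of the genes. Levels in RPKM and shares of gene reads rest on other library totals than TMM. Ratios formed from RPKM values are therefore higher than the TMM ratios by 0.045 on the log2 scale, and ratios formed from shares by 0.054, for each gene alike. Each TMM ratio has a 95% interval for counting error only. Each genotype had 1 library, so the differences lack a check by replicates and carry no p-value. Fewer cells of a type and less RNA per cell cannot be told apart in tissue lysate.

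No gene of the 10 differed by 1.5-fold or more between the libraries. Hspa5, Hyou1, Calr, Canx and Pdia6 had lower levels in the C201R/+ library with intervals that excluded equal levels, by 1.11-fold to 1.36-fold. The intervals of Hsp90b1, Pdia3, Pdia4, P4hb and Xbp1 held equal levels. All 10 genes had the 100 or more reads needed for comparison, which 9726 genes had. Of those, 8.14% were higher and 11.2% lower by at least 1.5-fold with an interval that excluded equal levels, against 0 and 0 of the 10. By the interval alone, with no limit on fold, 23.7% of the genes were higher and 28.2% lower, against 0 and 5 of the 10. Intervals narrow with more reads, and these shares were not matched to the reads of the 10. Whether 5 is many for genes with like numbers of reads was not tested. At a log2 limit of 0.32 with the same interval rule, the shares were 17.9% and 22.1%, against 0 and 3 (Hyou1, Calr and Canx). This limit was run with TMM scaling only. Scaled to total gene reads, the ratios of Calr (-0.30) and Hyou1 (-0.29) fell short of it, while that of Canx (-0.39) did not. The median log2 ratio of the 10 was -0.098, against -0.034 over all genes compared and -0.081 over the 973 genes with the most reads, 7 of the 10 among them.

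Gene spans are those of RefSeq on GRCm38.p6, from the first to the last exon. Hspa5 (ENSMUSG00000026864, chr2:34772090-34776529), the HSP70 of the ER and the chaperone that holds the stress sensors inactive, had 5316 wild-type reads (95% Poisson interval 5174 to 5461) and 2120 C201R/+ reads (2031 to 2212). Its level per gene length was 186 RPKM in the wild-type and 164 RPKM in the C201R/+ library. The log2 ratio was -0.23 (95% counting interval -0.30 to -0.15). The C201R/+ library was thus the lower one by 1.17-fold, and 32.8% of the genes compared had a lower ratio than Hspa5.

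Hyou1 (ENSMUSG00000032115, chr9:44379490-44392369), the large HSP70-like protein that exchanges the nucleotide of Hspa5, had 1654 reads (1575 to 1736) and 609 reads (562 to 659), or 47.9 and 39.0 RPKM. Its log2 ratio was -0.34 (-0.48 to -0.21). Summed, the chaperone and its exchange factor had 6970 and 2729 reads, a log2 ratio of -0.25 (-0.32 to -0.19). Both genes of the pair were thus lower in the C201R/+ library, and the number of Hspa5 reads per Hyou1 read, 3.21 and 3.48, did not differ beyond counting error (ratio 1.08, interval 0.974 to 1.204).

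Hsp90b1 (ENSMUSG00000020048, chr10:86690841-86705444), also called GRP94, is the HSP90 of the ER and folds integrins and Toll-like receptors. Its reads numbered 4516 (4385 to 4650) in wild type and 2115 (2026 to 2207) in C201R/+, or 205 and 213 RPKM. Its log2 ratio was 0.0063 (-0.069 to 0.081) with TMM and 0.060 with total gene reads. With TMM, a difference above 1.06-fold in either direction lay outside the counting interval. Its C201R/+ reads nearly equalled those of Hspa5, while in the wild-type library Hspa5 had 1.18 reads per Hsp90b1 read.

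The lectin chaperones hold glycoproteins that carry a single terminal glucose until they are folded, Canx in the ER membrane and Calr in the lumen. Calr (ENSMUSG00000003814, chr8:84842088-84846931), which also stores ER calcium, had 5804 reads (5656 to 5955) and 2116 reads (2027 to 2208). Its level was the highest of the 10 in each library, at 341 and 275 RPKM. The log2 ratio was -0.35 (-0.43 to -0.28).

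Canx (ENSMUSG00000020368, chr11:50293957-50325673) had the most reads of the 10 in each library, 6523 (6366 to 6683) and 2231 (2139 to 2326), and over its longer counted length of 4281 nt this was 196 and 148 RPKM. Its log2 ratio of -0.45 (-0.52 to -0.38) was the lowest of the 10. By TMM the wild-type library was higher by 1.36-fold, short of the 1.5-fold limit, and 17.7% of the genes compared had a lower ratio. Together the lectin chaperones held 0.159% of the wild-type gene reads (95% Wilson interval 0.156% to 0.161%) and 0.1245% of the C201R/+ gene reads (0.121% to 0.128%). The log2 ratio of their summed reads was -0.40 (-0.45 to -0.35) with TMM and -0.35 from these shares, which are scaled to total gene reads.

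The disulfide isomerases form and rearrange disulfide bonds. Pdia3 (ENSMUSG00000027248, chr2:121413902-121438687), or ERp57, works on glycoproteins bound to Calr and Canx. It had 3097 reads (2989 to 3208) and 1400 reads (1328 to 1475), with 144 RPKM in both libraries and a log2 ratio of -0.045 (-0.14 to 0.047). Its interval held equal levels, unlike those of the lectin chaperones. Canx reads per Pdia3 read were 2.11 in the wild-type and 1.59 in the C201R/+ library, a ratio of 0.757 (0.699 to 0.819), and Calr reads per Pdia3 read were 1.87 and 1.51 (ratio 0.806, interval 0.744 to 0.874).

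P4hb (ENSMUSG00000025130, chr11:120560298-120573253) is protein disulfide isomerase itself, also the beta subunit of prolyl 4-hydroxylase. It had 2458 reads (2362 to 2557) and 1128 reads (1063 to 1196), or 110 and 112 RPKM. Its log2 ratio was -0.023 (-0.13 to 0.079) with TMM and 0.022 from the RPKM values, so the direction depended on the scaling. P4hb and Pdia3 stood close to each other, with 1.26 and 1.24 Pdia3 reads per P4hb read.

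Pdia4 (ENSMUSG00000025823, chr6:47796141-47813512), or ERp72, had 1169 reads (1103 to 1238) and 578 reads (532 to 627), or 62.6 and 68.4 RPKM. Its log2 ratio of 0.084 (-0.062 to 0.23) was the highest of the 10, with an interval that held equal levels. Pdia6 (ENSMUSG00000020571, chr12:17266589-17284785), or P5, which also acts on the sensors IRE1 and PERK, had 1305 reads (1235 to 1378) and 548 reads (503 to 596), or 78.8 and 73.3 RPKM. The Pdia6 log2 ratio was -0.15 (-0.30 to -0.0061), so the upper bound lay just below 0. The interval held 0 when libraries were scaled to total gene reads, to the upper quartile or to the totals behind the RPKM values, and at a 99% confidence level. Summed, the 4 isomerases had 8029 and 3654 reads and a log2 ratio of -0.035 (-0.092 to 0.022).

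Xbp1 (ENSMUSG00000020484, chr11:5520641-5525993) was the least abundant of the 10, with 252 reads (222 to 285) and 118 reads (97.7 to 141), or 15.2 and 15.7 RPKM. Its log2 ratio was 0.0060 (-0.32 to 0.33). The point estimates of the libraries nearly coincided, but at this depth a log2 difference of 0.32 in either direction lay within the interval.

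**Figure D2:**
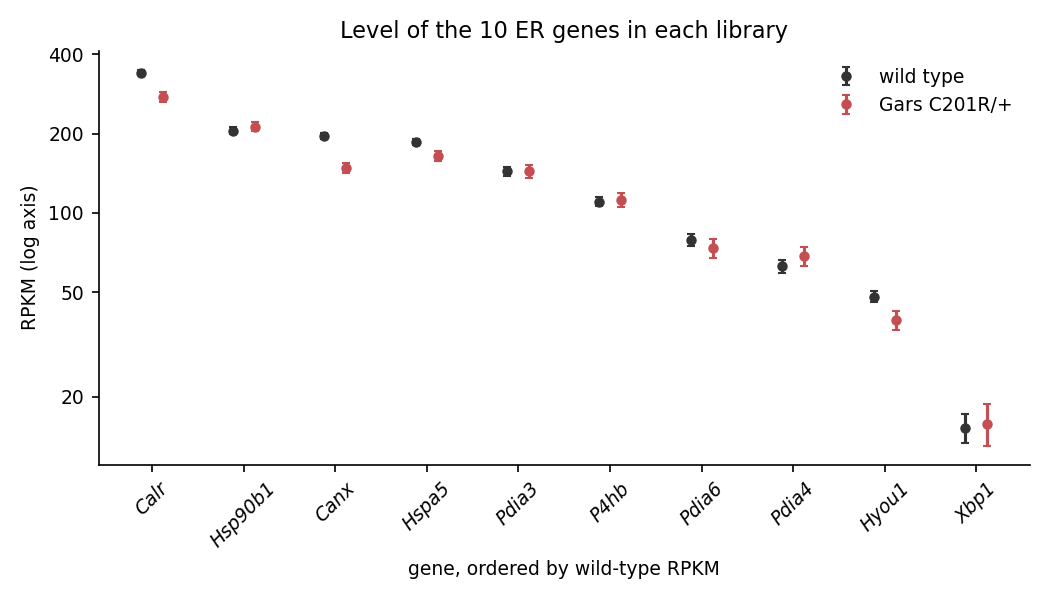
Level of the 10 genes (x axis, ordered by the wild-type value) in RPKM on a log axis (y axis), with 1 point per library and bars for the 95% Poisson interval of the reads. Calr is highest and Xbp1 lowest in both libraries, and the points of Calr, Canx, Hspa5 and Hyou1 in C201R/+ lie below those in wild type with intervals that do not meet.

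Per gene length, the order in the wild-type library was Calr, Hsp90b1, Canx, Hspa5, Pdia3, P4hb, Pdia6, Pdia4, Hyou1 and Xbp1, and each neighbour differed from the next beyond counting error. The closest were Hsp90b1 and Canx, with an RPKM ratio of 1.05 (1.01 to 1.09), and Canx and Hspa5, also with 1.05 (1.01 to 1.09). In the C201R/+ library the order was the same except that Hspa5 stood above Canx, by a ratio of 1.11 (1.04 to 1.18). There, Canx and Pdia3 (ratio 1.03, interval 0.964 to 1.10) and Pdia6 and Pdia4 (1.07, 0.951 to 1.21) did not differ beyond counting error. All but Xbp1 lay above the level of at least 85.8% of the genes in each library, and Calr above that of 98.9% in the wild-type library, while Xbp1 lay above 66.7% and 67.1%. The RPKM values use a gene length that is not the coding length alone, so genes with long untranslated regions stand lower than their coding density.

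**Figure D3:**
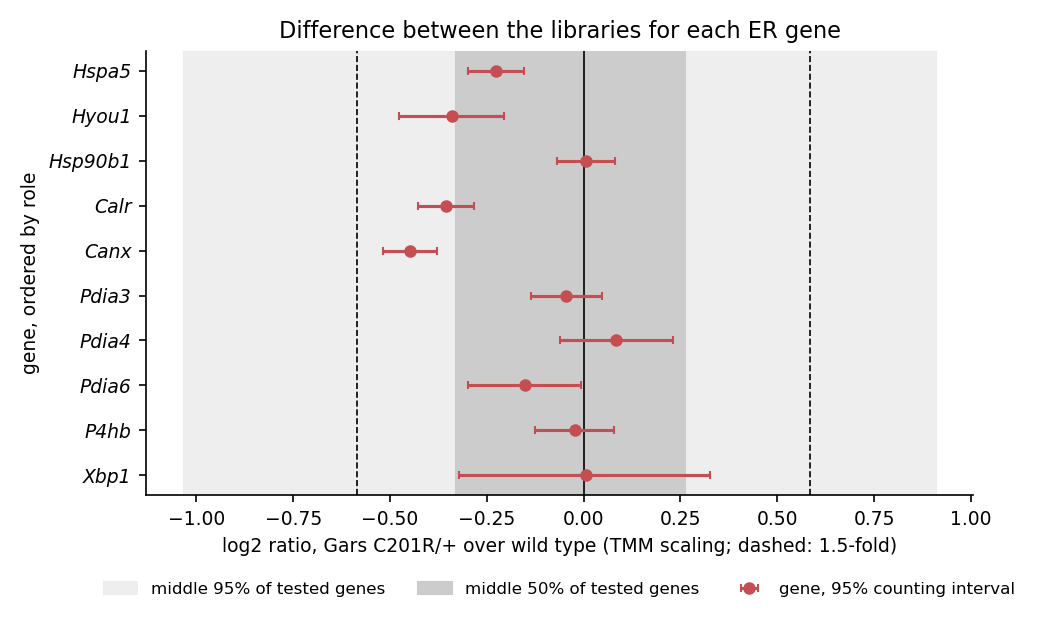
Log2 ratio of the C201R/+ over the wild-type library after TMM scaling (x axis) for each gene (y axis, by role), with 95% counting intervals, over bands that hold the middle 50% and 95% of the 9726 genes compared; dashed lines mark 1.5-fold. All 10 points lie inside the dashed lines, and Canx, Calr and Hyou1 lie left of the darker band, whose edges are -0.33 and 0.26.

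The sizes of these differences were set beside the spread of other genes. Over the 973 genes with the most reads (2152 or more over both libraries), ratios spread with a robust SD of 0.32 on the log2 scale, and the middle 80% lay between -0.50 and 0.32. The 7 members in that group, from Canx with -0.45 to Hsp90b1 with 0.0063, all lay inside this range. Canx had a lower ratio than all but 13.4% of that group, Calr than all but 19.6% and Hyou1 than all but 21.7%. The intervals of counting error that excluded equal levels were therefore narrow beside the differences that well-covered genes in general showed between these libraries.

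**Figure D4:**
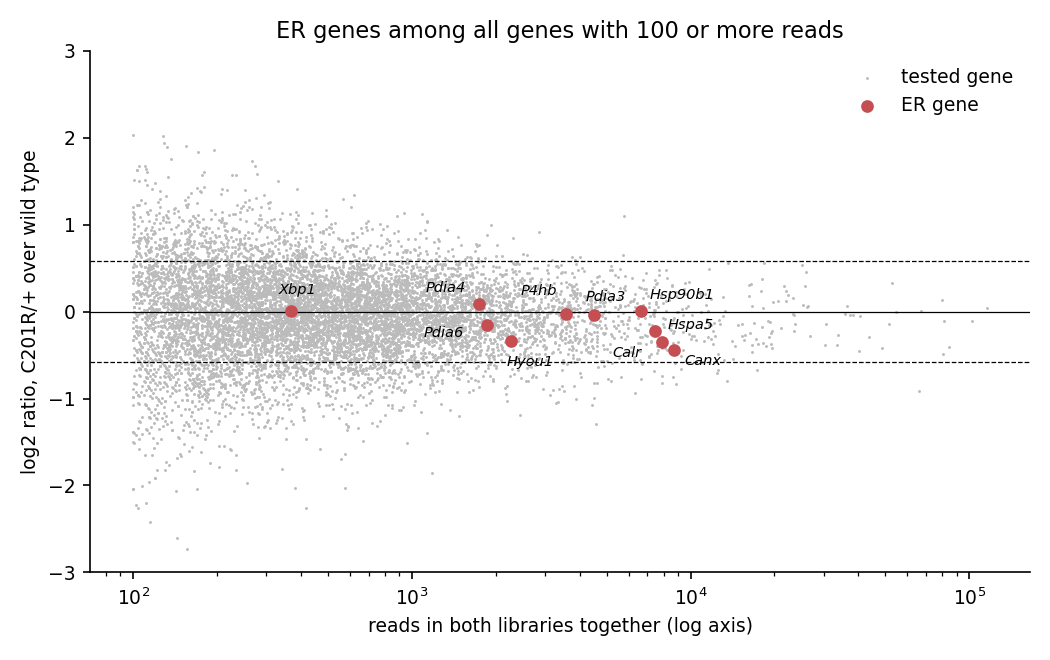
Log2 ratio (y axis) against reads in both libraries together (x axis, log scale) for the genes with 100 or more reads, with the 10 ER genes named and dashed lines at 1.5-fold; 9 genes beyond a log2 ratio of 3 in either direction are not drawn. The ER genes lie inside the cloud of genes with like numbers of reads.

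The members were also compared with each other inside a library, which needs no scaling between libraries. Of the 45 pairs, 24 had a ratio of reads that differed between the libraries with an interval that excluded 1, and 0 differed by 1.5-fold. Canx, Calr, Hspa5 and Hyou1, each set against the other 6 genes, gave 24 pairs, of which 21 were apart, while 3 of the 21 remaining pairs were. This split follows the ratios already given and is not a separate finding. No such count was made over pairs of other genes. Whether 24 of 45 is many for genes with like numbers of reads was therefore not tested. The widest pair was Canx and Pdia4, with 5.58 Canx reads per Pdia4 read in the wild-type and 3.86 in the C201R/+ library (ratio 0.692, interval 0.619 to 0.773). Canx and Calr kept 0.890 and 0.948 Calr reads per Canx read (ratio 1.07, 0.995 to 1.14), and Hyou1 and Calr had a ratio of 1.01 (0.909 to 1.12).

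**Figure D5:**
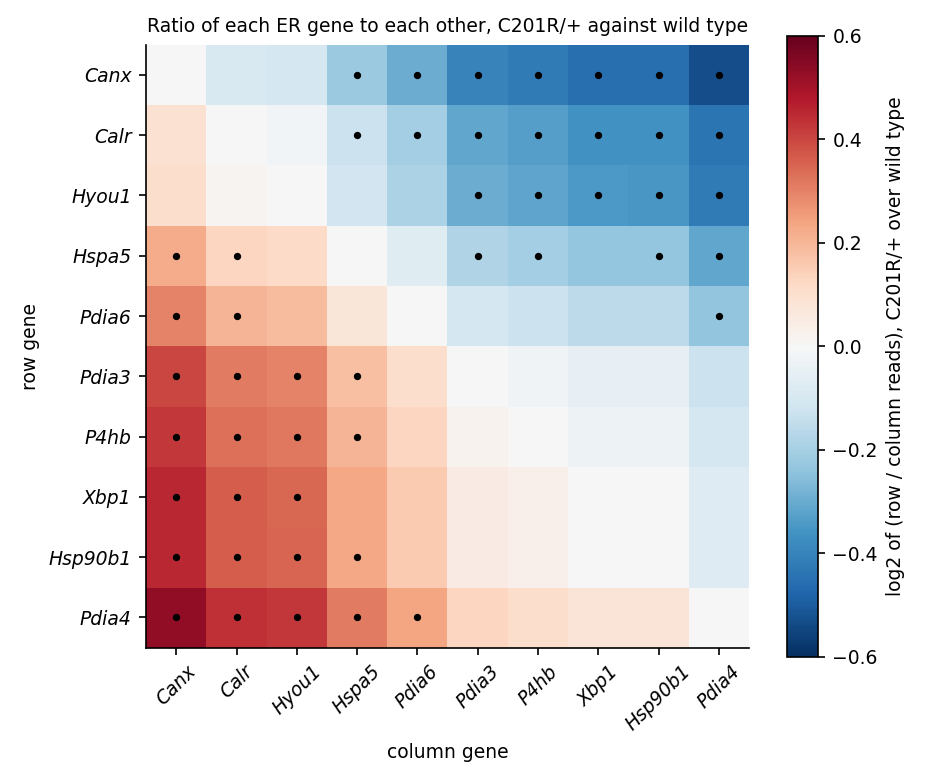
Log2 of the ratio of row gene to column gene reads, C201R/+ over wild type, for the 45 pairs (both axes ordered by the log2 ratio of each gene; each pair is shown on both sides of the diagonal). Dots mark the 24 pairs with a 95% interval that excludes 1. Because of the order of the axes, cells to the right of the diagonal are negative (blue) in every row.

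Set beside the promoter sequences above, the 5 genes with an exact ERSE had log2 ratios of -0.45 (Canx), -0.35 (Calr), -0.23 (Hspa5), -0.15 (Pdia6) and 0.0063 (Hsp90b1, the only one with 2 exact matches). The genes with 1 mismatch had -0.045 (Pdia3) and 0.084 (Pdia4), and those with no match -0.023 (P4hb) and 0.0060 (Xbp1). Hyou1, with -0.34, had no window. None of the 10 genes, whether or not an element was found, was higher in the C201R/+ library with an interval that excluded equal levels. Of all genes compared, 23.7% were. This count therefore does not set genes with an element apart. The other genes of the table could not be paired with promoters, so the split by element has no background. The relation of the ratios to the element was not tested.

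Summed over the 10 genes, the wild-type library had 32094 reads, 0.413% of its gene reads (0.409% to 0.418%), and the C201R/+ library 12963 reads, 0.371% (0.365% to 0.378%). The log2 ratio of the sums was -0.21 (-0.24 to -0.18) with TMM and -0.15 from these shares. With TMM it was also -0.15 when Canx was left out, since the sum rests most on the genes with most reads. The alternative scalings to gene reads shifted all log2 ratios by at most 0.054. This turned the sign of Pdia3, of P4hb and of the summed isomerases but of no member whose interval excluded equal levels. Of those members, Pdia6 had an interval that held equal levels with some of these scalings, as given above.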

How the data were processed

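Ribosome-protected fragments of spinal cord were measured in 1 library per genotype, each of 3 pooled animals per the labels. The submitters' processing notes name Bowtie 1.2.2, HTSeq 0.9.1 and GRCm38; the labels state no settings, strand or counted part of the gene. The authors deposited read counts and RPKM values per gene, per the file headers. Counts were used as deposited for ratios, and RPKM for levels. With totals of 7790126 wild-type and 3520348 C201R/+ reads, recovered from the values as a common divisor and above the listed reads, reads and RPKM gave whole gene lengths (within 8.4e-11 nt), identical in both libraries.

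Symbols of the 10 identifiers were given with the choice of genes. The tables and the reference table pair none, so this pairing could not be checked beyond the counted length, which was below the RefSeq gene span for all 10. The 7 planned lists of related genes and the 12 marker lists were therefore not analysed here. The members and lists were chosen with earlier results of these data known.

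Libraries (12530 genes, spike-ins apart) were put on 1 scale by TMM (edgeR 4.0.16, R 4.3.3). Ratios use a prior count of 0.5 scaled to depth. Intervals are exact binomial (Clopper-Pearson) for ratios between libraries and for RPKM ratios between genes within a library. They are exact Poisson for reads and Wilson for shares. For the ratios of gene pairs compared between libraries they are normal on the log scale. All cover counting error only, and reads may not be independent molecules. Reads shared with near-identical or overlapping genes could not be told apart. The rule was tested on simulated counts that held counting error only, so that test does not cover spread between libraries. Named genes are the 10 members. Alternatives were other scalings (DESeq2 1.42.0 among them), prior counts, read minimums, intervals, fold limits and thinning. Python 3.11.15 with scipy 1.17.1, pandas 2.3.3 and matplotlib 3.10.9 did the rest. Promoter windows are from RefSeq.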

Additional observations from a re-analysis of the deposited data

Results flagged for a closer look

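The ERCC spike-ins, data outside the gene comparisons, made up 0.650% of the listed reads of the C201R/+ library (95% Wilson interval 0.642% to 0.659%) and 0.00669% of the wild-type library. Whether equal amounts were added is not given in the sources used here, so the main ratios are relative to the gene reads.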

How the results depend on the processing

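No member was called higher under any alternative run: 6 other scalings, 2 other prior counts, read minimums of 20, 500 or none, a 99% interval, a 2-fold limit, a lower limit of 0.32 on the log2 scale, and thinning of the wild-type library. A minimum of 500 reads left out Xbp1. The limit of 0.32 was run with TMM alone. Hyou1 and Calr fell short of it with total gene reads, the upper quartile or the totals behind the RPKM values. Members called lower numbered 0 under the same alternatives, except 3 (Hyou1, Calr and Canx) at that lower limit, which 22.1% of the genes passed on the lower side, and 10 under scaling to the spike-ins. That scaling shifts every gene by 1 common factor, called 100% of the genes lower and says nothing about single genes. It put the median log2 ratio at -6.65, the ratio of the summed reads at -6.77 and all 10 members below equal levels by the interval alone. The ratio of the summed reads was -0.15 with total gene reads, -0.17 with the upper quartile and -0.16 with the totals behind the RPKM values. Leaving out 1 member at a time gave -0.25 to -0.15 for the summed reads and -0.15 to -0.045 for the median. By the interval alone, a result chosen after seeing the data, 4 or 5 members were lower under the other scalings, the prior counts, the 99% interval and thinning, the alternatives run for it. Pairs apart numbered 19 with a 99% interval and 23 after thinning, with no count over pairs of other genes beside them. No paired analysis was possible because each genotype has 1 library. No replicate could be left out, and the alternatives for the planned gene lists were not run. Depth limits Xbp1 most, with 118 reads in the C201R/+ library.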
